A study of Homo sapiens with 8 samples.

Results

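CBX7 and 8 further Polycomb subunit genes were followed through RNA sequencing of 8 RPMI-8402 clones; RPMI-8402 is an established line of human T-cell leukaemia. The genes were chosen by symbol: CBX7, CBX2, CBX6, CBX8 and BMI1 of Polycomb repressive complex 1 (PRC1), and EZH1, EZH2, SUZ12 and EED of Polycomb repressive complex 2 (PRC2). They are 9 of 61228 gene symbols in the deposited count table, and all 9 were among the 14243 genes that passed the low-count filter. CBX7 was picked because its mRNA was lower in knockout clones of these same data, so its difference between the groups is given as a description. The labels name 4 clones with NKX2-1 knocked out and 4 that kept the wild-type gene, all untreated and grown in the same medium. Values for single clones are given in the order C12, C15, S04, S36 for knockout and WT10, WT13, WT28, WT30 for wild type. NKX2-1 is a homeobox transcription factor of lung and thyroid. The kind of edit is not stated in the labels. All clones come from 1 cell line, and how each was derived from it is not stated either.

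Polycomb proteins keep developmental genes silent. PRC2, built on EED and SUZ12 with EZH1 or EZH2 as the enzyme, methylates histone H3, and the chromodomain of a CBX protein in canonical PRC1 binds that mark. PRC1 also holds a RING finger enzyme (RING1 or RNF2) with a PCGF partner such as BMI1, and ubiquitinates histone H2A. CBX2, CBX6, CBX7 and CBX8 are alternative subunits for the same place in the complex, so the question addressed was whether CBX2, CBX6 or CBX8 was higher where CBX7 was lower. EZH2 is typical of dividing cells and EZH1 of resting ones, and BMI1 and CBX7 are known for restraining the CDKN2A locus.

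CBX7 lies on chromosome 22 from 39120167 to 39152674 and CBX6 on the same strand of that chromosome from 38861450 to 38872314, 248 kb apart (hg38, GENCODE release 29). CBX2 (79778132 to 79787983) and CBX8 (79792132 to 79801683) are neighbours on chromosome 17, 4.15 kb apart. SUZ12 (31937018 to 32001045) and EZH1 (42700275 to 42745049) are also on chromosome 17, EED is on chromosome 11 (86244544 to 86278813), BMI1 on chromosome 10 (22321211 to 22331484) and EZH2 on chromosome 7 (148807383 to 148884321). The bases before the RefSeq start sites of CBX7 and CBX6 are shown because these paralogs share a strand and a neighbourhood and had the lowest fitted differences of the members. Both windows hold 250 bases on the minus strand of GRCh38.p14, at chr22:39152681-39152930 for CBX7 and chr22:38872217-38872466 for CBX6, written 5′ to 3′ with each CpG in capitals.
CBX7: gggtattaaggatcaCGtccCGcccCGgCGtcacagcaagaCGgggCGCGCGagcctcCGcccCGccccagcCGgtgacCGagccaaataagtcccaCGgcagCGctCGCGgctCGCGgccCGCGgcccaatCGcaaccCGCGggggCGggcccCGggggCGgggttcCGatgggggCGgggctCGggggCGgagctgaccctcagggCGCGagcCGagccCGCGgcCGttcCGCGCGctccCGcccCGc
CBX6: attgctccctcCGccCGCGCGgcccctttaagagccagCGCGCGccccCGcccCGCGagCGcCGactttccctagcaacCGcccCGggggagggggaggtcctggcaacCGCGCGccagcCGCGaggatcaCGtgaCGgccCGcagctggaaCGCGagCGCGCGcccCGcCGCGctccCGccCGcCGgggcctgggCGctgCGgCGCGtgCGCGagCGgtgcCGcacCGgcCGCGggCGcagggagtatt
The CBX7 window holds 41 CpG at 78.8% G and C, and the CBX6 window 45 CpG at 79.2%, against medians of 11 CpG and 58% over 35116 promoter windows of the same length. The windows available for BMI1, EZH1, EZH2 and SUZ12 hold 26 to 54 CpG and that of EED 11, so dense CpG is not particular to CBX7 and CBX6. The letters TGTGGT, the core of the RUNX site, and CAAGTG, a core of NKX2 sites, were searched on both strands. Neither occurs in the windows of CBX7, CBX6 or these other members, while 3855 and 3336 of the 35116 windows hold them.

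The smallest library, C15, held 2730285 counts and the largest, C12, 25423215, with 12344549 to 22916424 in the rest. Levels are given in CPM, counts relative to the TMM-scaled library total. NKX2-1 mRNA was at 11.3 to 83.6 CPM in knockout clones and 53.6 to 63.2 in wild-type clones. C12 and S04 lay above every wild-type clone in NKX2-1, and C15 and S36 lay below every one. Gene-level counts cannot show an edit, so the labels are not checked by them. T-lineage markers summed to 1971 to 2584 CPM in knockout and 2210 to 2613 in wild-type clones, while B-lineage markers summed to 3.98 to 7.79 and 7.46 to 11.6, myeloid markers to at most 1.87, erythroid markers to at most 0.0472 and stromal and epithelial markers to at most 20.1. Of the 10 T-lineage markers 0 passed between the groups by edgeR or limma-voom, with 2 (CD5 and CD7) lower at an unadjusted p under 0.05 and 2 called by DESeq2, where 15.5% and 3.66% of all tested genes were. CD5 was at 37.1 to 71.2 CPM in knockout and 84.8 to 116 in wild-type clones, and CD7 at 1.30 to 3.80 and 5.59 to 6.55. The B-lineage marker CD79A was also lower in every knockout clone, at 0.543 to 2.74 CPM against 3.83 to 7.40 (log2 fold change -1.34, edgeR adjusted p = 0.198). The part of these markers in the results below was not tested. MS4A1, LYZ, HBB, HBA1, COL1A2 and EPCAM had 0 counts in all 8 clones. TUBB, with 2 counts in all, and DDX39B, with 0, are genes that every cell uses, so a gene listed at or near 0 in this table is not read as silent.

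CBX7, the smallest of the Polycomb CBX proteins, was lower in every knockout clone than in every wild-type clone. It stood at 1.89, 0.807, 1.33 and 1.45 CPM across the knockout clones. The wild-type clones had 4.79 CPM (WT10), 6.66 (WT13), 5.52 (WT28) and 5.24 (WT30). The knockout clones thus held between 14.5% and 34.0% of the wild-type mean, C12 being the highest and C15 the lowest. These levels are low: 92 counts in the knockout clones together and 452 in the wild-type clones, a ratio of 0.286 (95% counting interval 0.226 to 0.359, which covers counting error only). The C15 value rests on 2 counts, with an exact Poisson interval from 0.0978 to 2.92 CPM that reaches above the other 3 knockout clones but not to the wild-type values.

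The log2 fold change of CBX7 was -1.90 (SE 0.28, 95% interval -2.52 to -1.28, edgeR adjusted p = 0.0326), the value for which it was chosen. Of all tested genes 0.316% passed this threshold of 0.05, 0.176% as lower and 0.14% as higher, and in 5.62% every knockout clone lay below every wild-type clone. The fold change stayed between -2.10 and -1.75 in the 16 alternative fits in which CBX7 could be tested. Those fits reuse the clones from which CBX7 was chosen. Its call was lost without S04 (adjusted p = 0.0754), S36 (0.0623), WT10 (0.0945), WT13 (0.116), WT28 (0.0920) or WT30 (0.138), and with the C-named knockout clones only (0.132). In libraries thinned to the smallest total CBX7 did not pass the count filter.

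**Figure D1:**
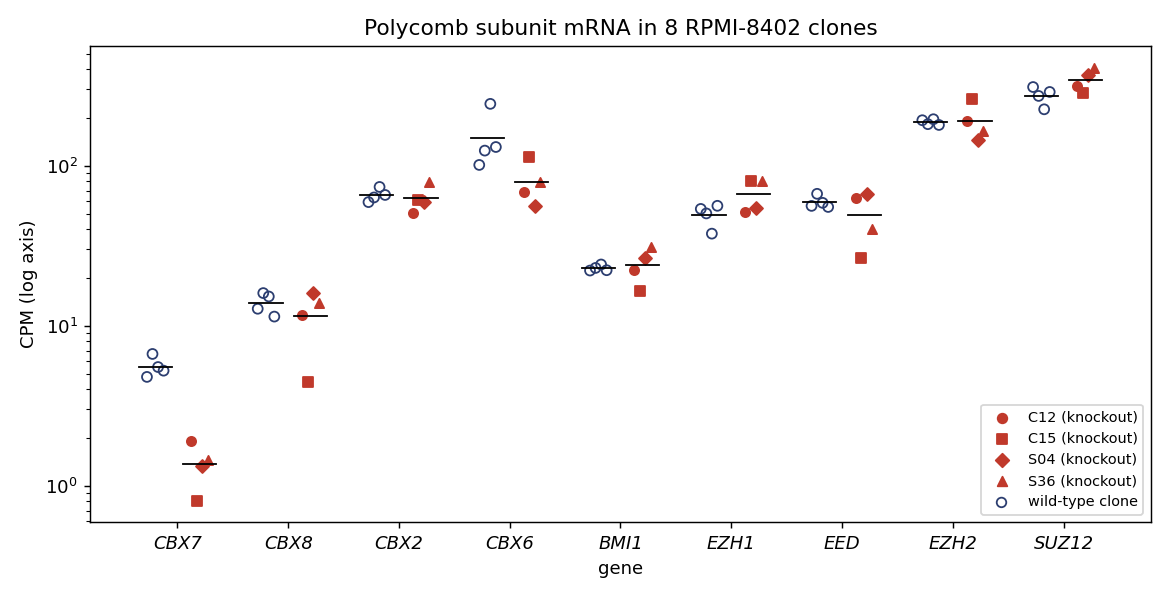
CPM on a log axis of the 9 members in each clone, with open circles for the 4 wild-type clones, filled symbols for the 4 knockout clones and a line at each group mean. CBX7 is the gene in which the groups do not overlap, with knockout clones between 0.807 and 1.89 CPM and wild-type clones between 4.79 and 6.66.

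No rise was detected for CBX2, CBX6 or CBX8 in the group of knockout clones. All had fold changes below 0, with a median log2 fold change of -0.21 against 0.020 over all tested genes, and 0 of the 3 passed by edgeR, by DESeq2 (which called 3.66% of all tested genes) or by limma-voom (0.66%). At an unadjusted p under 0.05 there was 1, CBX6, in the lower direction, and 15.5% of all tested genes were under it in either direction. In each of the 3 genes the groups overlapped. The sign of 2 of them turned in single alternatives, CBX2 without C12 (0.017) or with S-named knockout clones only (0.059) and CBX8 with S-named clones only (0.092).

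CBX2, whose protein compacts nucleosomes, was at 50.9, 61.4, 59.2 and 78.7 CPM across the knockout clones, against 59.3, 63.4, 73.7 and 65.7 across the wild-type clones. C12 was the lowest and S36 the highest of the 8 clones. The log2 fold change was -0.068 (SE 0.16, 95% interval -0.41 to 0.28, edgeR adjusted p = 0.874).

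CBX8, the neighbour of CBX2 and known as a partner of BMI1, was at 11.6, 4.44, 15.9 and 13.8 CPM across the knockout clones, against 12.8, 16.0, 15.2 and 11.4 across the wild-type clones. C15, with 11 counts, was the only knockout clone outside the wild-type range. The log2 fold change was -0.21 (SE 0.29, 95% interval -0.86 to 0.43, edgeR adjusted p = 0.771). The upper ends of these intervals are 1.21-fold for CBX2 and 1.35-fold for CBX8. A rise beyond these sizes lies outside the 95% intervals, and smaller rises lie within them.

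CBX6, a less studied CBX subunit, had a fold change of the same sign as CBX7. It was at 68.8, 113, 56.1 and 79.2 CPM across the knockout clones, against 101, 124, 244 and 131 across the wild-type clones. C12, S04 and S36 lay below every wild-type clone, and C15 lay above WT10. The wild-type clones themselves spread widely, WT28 being the highest. The log2 fold change was -0.93 (SE 0.29, 95% interval -1.57 to -0.30), which did not pass over all genes (edgeR adjusted p = 0.180). It was -0.60 without WT28 (adjusted p = 0.391) and -1.15 without C15 (0.0839), and CBX6 passed only with no low-count filter (-0.99, adjusted p = 0.00149), a setting in which 581 genes passed in all.

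**Figure D2:**
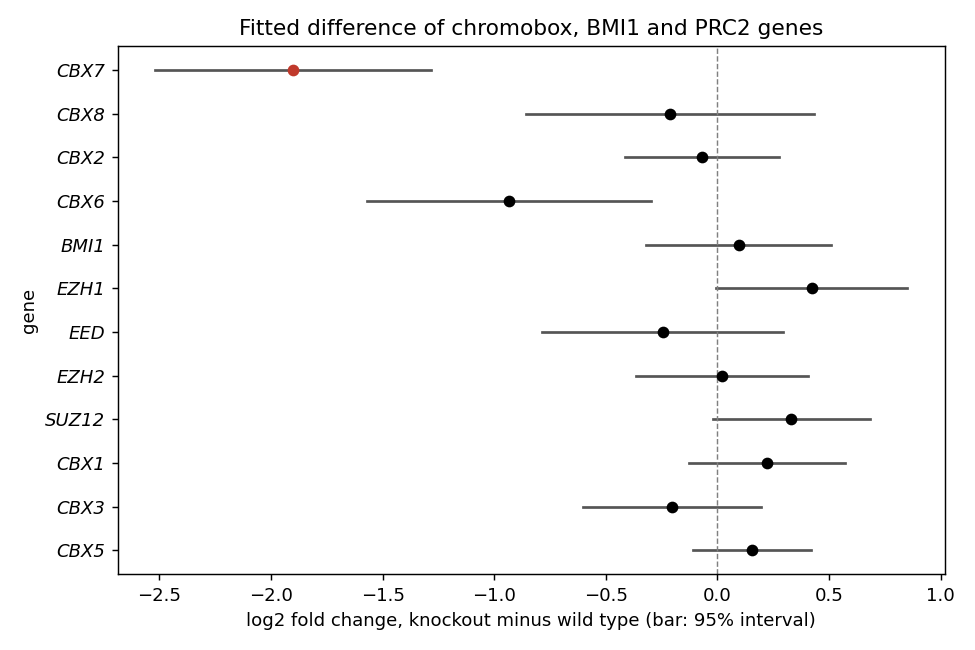
Log2 fold change of knockout over wild-type clones for CBX7, CBX8, CBX2, CBX6, BMI1, the PRC2 core genes and the HP1 genes CBX1, CBX3 and CBX5, with 95% intervals from the edgeR fit. CBX7 at -1.90 (red) is the 1 gene past the threshold, and the intervals of CBX2 and CBX8 cover 0.

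Levels of different genes were compared per kilobase of principal transcript (CPM per kb). By that measure CBX7 was the least abundant of CBX2, CBX6, CBX7 and CBX8 in each of the 8 clones. In wild-type clones CBX6 was at 24.5 ± 10.4 CPM per kb, CBX2 at 14.1 ± 1.31, CBX8 at 3.65 ± 0.563 and CBX7 at 1.36 ± 0.196 (SD, n = 4 each). The ranges of neighbours in this order did not overlap, CBX6 and CBX2 being the closest with a lowest CBX6 value of 16.5 (WT10) and a highest CBX2 value of 15.9 (WT28). With all exons of each gene merged (8030 bases for CBX6, 5687 for CBX2), the ranges of CBX6 and CBX2 overlap. In knockout clones CBX2 and CBX6 were at like levels and the rest kept their order, with CBX2 at 13.5 ± 2.52, CBX6 at 13.0 ± 4.01, CBX8 at 3.02 ± 1.32 and CBX7 at 0.336 ± 0.109 (SD, n = 4 each).

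CBX7 made up 3.47%, 4.10%, 2.21% and 3.22% of the summed per-length level of CBX2, CBX6, CBX7 and CBX8 across the wild-type clones. In the knockout clones its share was 1.80%, 0.597%, 1.23% and 1.05%, all below the wild-type shares. The summed level of CBX2, CBX6 and CBX8 was 25.3, 32.9, 26.1 and 33.5 CPM per kb across the knockout clones, against 32.7, 38.2, 59.7 and 38.6 across the wild-type clones. The groups overlapped, with C12 and S04 below every wild-type clone and C15 and S36 just above WT10. The lower CBX7 level amounted to 1.03 CPM per kb, which is small beside the SD of 11.9 of that sum among wild-type clones, so a rise of these genes by the same number of transcripts would not be detectable in the sum. Relative to CBX8, the next gene in the order, CBX7 stood at 0.336 to 0.427 in wild-type clones and 0.0774 to 0.169 in knockout clones.

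**Figure D3:**
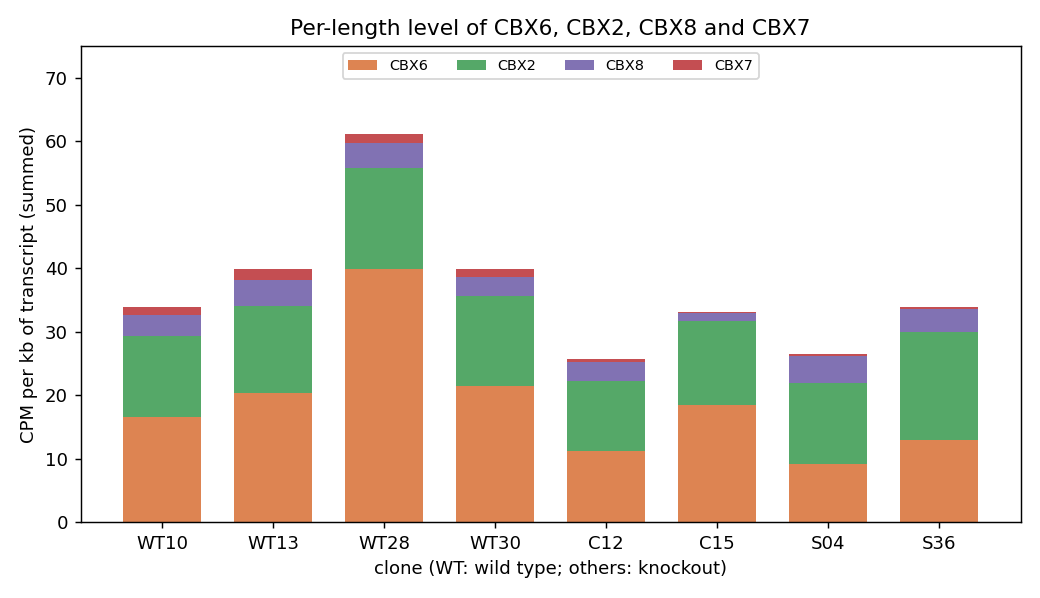
Stacked per-length levels (CPM per kb) of CBX6, CBX2, CBX8 and CBX7 in each of the 8 clones. CBX7 is the thin top layer at 0.597% to 4.10% of the bar, and the tallest bar is that of WT28, where CBX6 is highest.

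BMI1, the PCGF subunit that stimulates the RING finger enzyme, was at 22.3, 16.6, 26.7 and 30.9 CPM across the knockout clones, against 22.1 to 24.2 in wild-type clones. The knockout clones spread to both sides of a narrow wild-type range, and the log2 fold change was 0.095 (SE 0.19, 95% interval -0.32 to 0.51, edgeR adjusted p = 0.849). S36, where BMI1 was highest, also had a median log2 difference of 0.30 over 524 genes of chromosome 10, taken against wild type. The part of that shift in the BMI1 value was not tested. BMI1 shares 1000 of its 4283 exonic bases with the readthrough gene COMMD3-BMI1, which had 0 counts in every clone, so reads from the shared bases cannot be assigned with certainty.

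In PRC2, SUZ12, which holds the complex together, was at 314, 287, 368 and 411 CPM across the knockout clones, against 311, 273, 225 and 289 across the wild-type clones. C12, S04 and S36 lay above every wild-type clone and C15 did not. The log2 fold change was 0.33 (SE 0.16, 95% interval -0.022 to 0.68, edgeR adjusted p = 0.352). The partial copy SUZ12P1 had 0 counts in every clone, so reads that match both may be missing from these values.

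EZH1, the less active of the PRC2 enzymes, was at 51.7, 79.9, 54.4 and 80.5 CPM across the knockout clones, against 53.7, 50.4, 37.6 and 56.2 across the wild-type clones. C15 and S36 lay above the wild-type range, C12 and S04 within it, and the log2 fold change of 0.42 (SE 0.20, 95% interval -0.0082 to 0.85) did not pass (edgeR adjusted p = 0.331). EZH1 and SUZ12 were both lowest in WT28, the clone in which CBX6 was highest.

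EZH2, the main enzyme, was at 191, 260, 146 and 166 CPM across the knockout clones, against 180 to 195 in wild-type clones. C15 was above and both S-named clones were below a narrow wild-type range, and the log2 fold change was 0.020 (SE 0.18, 95% interval -0.37 to 0.41, edgeR adjusted p = 0.98). EED, which reads the methyl mark and stimulates the enzyme, was at 62.9, 26.6, 67.0 and 40.1 CPM across the knockout clones, against 55.3 to 66.8 in wild-type clones. C15 and S36 lay below the wild-type range and the log2 fold change was -0.25 (SE 0.24, 95% interval -0.78 to 0.29, edgeR adjusted p = 0.676).

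Per kilobase, EZH2 exceeded EZH1 by 4.84-fold in WT10, 4.88-fold in WT13, 7.01-fold in WT28 and 4.32-fold in WT30. The ratio was 4.99, 4.39, 3.62 and 2.78 in the knockout clones. Both S-named clones thus lay below every wild-type clone, while both C-named clones lay within the wild-type range. In wild-type clones EZH2 was at 71.1 ± 2.90 CPM per kb, SUZ12 at 61.2 ± 8.06, EED at 26.6 ± 2.36 and EZH1 at 13.9 ± 2.32 (SD, n = 4 each), so EZH2 and SUZ12 overlapped and EED and EZH1 lay apart below them. This order holds for principal transcripts. By longest transcript (3641 bases for EZH2, 4491 for SUZ12) the SUZ12 mean is the higher. With all exons merged (7016 bases for EED, 6988 for EZH1), EED and EZH1 overlap.

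The chromosomes that carry the members hardly shifted otherwise. The largest median log2 difference from the wild-type mean in any clone was 0.094 for chromosome 22 (336 genes), 0.087 for chromosome 17 (855), -0.030 for chromosome 11 (791) and -0.065 for chromosome 7 (641), so that the CBX7 difference of -1.49 to -2.61 in single knockout clones was not shared by its chromosome. Of the 10 tested genes nearest to CBX7, CBX6 among them, 0 passed by edgeR, with 4 at an unadjusted p under 0.05 (15.5% of all tested genes), 1 called by DESeq2 (3.66%) and 0 by limma-voom (0.66%), and 6 lay above 0 and 4 below. Between CBX6 and CBX7 lie the cytidine deaminase genes of the APOBEC3 family, of which 4 were tested. Their log2 fold changes ran from -0.35 (APOBEC3G, edgeR adjusted p = 0.699) to 0.70 (APOBEC3H, SE 0.47, edgeR adjusted p = 0.501). On the other side RPL3, a ribosomal protein gene, was at 0.71 (edgeR adjusted p = 0.252) and the small nucleolar RNA SNORD43 inside it at 1.40 (0.183). The gene ENSG00000280216, which has no symbol, starts 259 kb above the lower end of CBX7 and was the 1 neighbour of 10 whose groups did not overlap, where 10.1% of all tested genes had groups apart. It was at 0 to 0.807 CPM in knockout clones (9, 2, 0 and 7 counts) and 1.33 to 1.87 in wild-type clones. The C15 value rests on 2 counts, whose Poisson interval (0.0978 to 2.92 CPM) covers the wild-type values. The log2 fold change of -2.28 (SE 0.64) did not pass (edgeR adjusted p = 0.152). ENSG00000280216 lies inside SYNGR1 (39349925 to 39385588), on the same strand. SYNGR1, a synaptic vesicle protein gene, was at 6.25, 23.4, 0.604 and 18.8 CPM across the knockout clones and 18.4 to 23.8 in wild-type clones. C12 and S04 were low in SYNGR1 and C15 and S36 lay within the wild-type range (log2 fold change -0.90, SE 0.69, edgeR adjusted p = 0.569).

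The tested gene before CBX2 on its chromosome is ENGASE, an enzyme of glycan removal. ENGASE was at 4.20 to 7.67 CPM in knockout and 9.95 to 12.5 in wild-type clones (log2 fold change -1.13, SE 0.23, edgeR adjusted p = 0.0800), so the knockout clones were all lower and the difference did not pass the threshold. The unnamed gene ENSG00000262768 overlaps the start of CBX8 on the other strand and was at 0.302 to 1.04 CPM in knockout and 0.710 to 2.02 in wild-type clones (-1.21, SE 0.50, edgeR adjusted p = 0.288).

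CBX7 has other genes in its own interval. The pseudogene COX5BP7 shares 274 of its 7461 exonic bases on the same strand and had 9 counts in all clones together, and the antisense gene AL031846.2 shares 1338 bases on the other strand. Whether counting used strand is unknown from the labels, so reads of CBX7 and of that antisense gene cannot be told apart.

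None of the other genes of the pathway passed between the groups. Of 53 further Polycomb genes (RING finger and PCGF genes, PHC and SCM genes, variant PRC1 partners, PRC2 accessory genes, the deubiquitinase PR-DUB and the histone H3 demethylases KDM6A and KDM6B) 46 were tested, 23 above 0 and 23 below, with a median log2 fold change of 0.010. By edgeR 0 passed, with 6 at an unadjusted p under 0.05, while DESeq2 called 1 and limma-voom 0, against 15.5%, 3.66% and 0.66% of all tested genes. In 3 of them (RNF2, AUTS2 and KDM2B) every knockout clone was higher and in 3 (E2F6, PCGF1 and JARID2) every one was lower, where 10.1% of all tested genes had groups apart; KDM2B was named after its values were seen.

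E2F6, a repressor that brings a variant PRC1 to its sites, was at 29.3 to 45.0 CPM in knockout and 52.3 to 67.5 in wild-type clones. The groups did not overlap, but the log2 fold change of -0.67 (SE 0.16) did not pass by edgeR (adjusted p = 0.118), and it passed by DESeq2 (0.0171). RNF2, the main RING finger enzyme of PRC1, was at 24.96, 25.8, 29.6 and 33.2 CPM across the knockout clones, all above the wild-type range of 21.1 to 22.6 (log2 fold change 0.39, SE 0.15, edgeR adjusted p = 0.254). AUTS2, a partner of PCGF3 and PCGF5 complexes, was at 0.67 (0.257), BCOR, the scaffold of the PCGF1 complex, at 0.48 (0.293), and SCML2 at 0.66 (0.320). PCGF1 was at -0.63 (0.423), PCGF6 at 0.47 (0.468) and JARID2, a PRC2 recruiter, at -0.20 (0.481). KDM6A was at 0.20 (0.712) and KDM6B at -0.34 (0.595). The values in brackets are edgeR adjusted p. The PCGF1 groups lay close, with 2.51 CPM in C12 and 2.59 in WT28, and C15 had 1 count.

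RING1, the paralog of RNF2, was at 0 to 1.39 CPM, and PCGF2 and EPOP had 0 counts in all clones, levels that are not read as absence for the reason given above for TUBB and DDX39B. The HP1 genes CBX1, CBX3 and CBX5, whose chromodomains bind another histone H3 mark, were at 0.22, -0.20 and 0.15 (edgeR adjusted p = 0.544, 0.628 and 0.579). Of the 3, 0 passed by edgeR, DESeq2 or limma-voom, which called 0.316%, 3.66% and 0.66% of all tested genes. At an unadjusted p under 0.05 there were 0, against 15.5% of all tested genes. CBX5 was higher in every knockout clone (617 to 676 CPM) than in every wild-type clone (574 to 601), as were 4.44% of all tested genes.

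Genes that Polycomb is known to silence mostly had too few counts to be tested. Of 69 listed targets, the HOX genes, CDKN2A, CDKN2B and other developmental regulators, 21 passed the count filter and 24 had 0 counts in all 8 clones, CDKN2A and CDKN2B among them. Of the HOXC genes 0 of 9 passed the filter, and of the HOXA genes 7 of 11. Among the 21 tested targets 6 lay above 0 and 15 below, with a median log2 fold change of -0.19, and 0 passed by edgeR, with 4 at an unadjusted p under 0.05, 1 called by DESeq2 and 0 by limma-voom, against 15.5%, 3.66% and 0.66% of all tested genes. HOXA6 was at 1.12, 3.23, 8.69 and 11.8 CPM across the knockout clones, against 1.38 to 2.12 in wild-type clones, so that C15 and both S-named clones stood above and C12 below. The fold change of HOXA6 was 1.82 on the log2 scale (SE 0.58, edgeR adjusted p = 0.187), and it turned to -0.16 with the C-named clones only. HOXB7 was at 7.37 to 20.2 CPM in knockout and 16.2 to 24.1 in wild-type clones (-0.85, SE 0.29, edgeR adjusted p = 0.201).

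The C-named and S-named knockout clones, 2 of each, were compared in a fit with 3 groups. The labels leave the letters unexplained. Of all tested genes 0.358% passed, and of the 9 members 0 passed by edgeR, DESeq2 or limma-voom, with 2 at an unadjusted p under 0.05 by edgeR, EZH2 and BMI1, where 17.1% of all tested genes were. The log2 difference, C-named minus S-named, was 0.53 for EZH2 (SE 0.18, 95% interval 0.13 to 0.92, edgeR adjusted p = 0.180) and -0.54 for BMI1 (SE 0.21, interval -1.001 to -0.072, adjusted p = 0.232). CBX7 differed by 0.21 (SE 0.41, interval -0.70 to 1.13, adjusted p = 0.828). Without C12, so that C15 alone stood for its letter and was assumed to vary like the other groups, EZH2 (0.74, adjusted p = 0.0400) and CBX8 (-1.75, 0.0434) passed.

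The genes whose log2 CPM followed CBX7 most closely over the 8 clones, among 9364 ranked, were TUBB2A (Pearson r = 0.985), SERTAD2 (0.983), FOXN4 (0.978), XRCC5 (0.978) and RPL22 (0.976). In each of these the groups did not overlap either, and the points share library and depth. TUBB2A, a beta tubulin gene, was at 0.404 to 1.12 CPM in knockout and 2.80 to 3.16 in wild-type clones. SERTAD2, on chromosome 2, was at 29.1 to 37.1 and 56.1 to 70.8 CPM. Among the members r with CBX7 was 0.617 for EED, 0.613 for CBX6, 0.562 for CBX8, 0.165 for CBX2 and 0.100 for BMI1, and it was -0.159 for EZH2, -0.580 for SUZ12 and -0.711 for EZH1. All these r values include the group difference for which CBX7 was chosen, so they are no separate sign of shared variation. The CBX7 value of C15, the shallowest library, rests on 2 counts.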

How the data were processed

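Raw gene counts of the 8 clones are in 1 table as deposited by the authors. The submitters' processing notes list hg38, Subread, SAMtools, TopHat2 and FastQC; their roles and versions, the annotation, the strand setting and the handling of reads that match several places were not found in labels or headers. After filterByExpr and TMM scaling, the groups were tested two-sided by quasi-likelihood in edgeR 4.0.16 under R 4.3.3, and p-values were adjusted by Benjamini-Hochberg over 14243 genes. The C-named and S-named clones were tested on the same genes. Alternatives were DESeq2 1.42.0, limma-voom (limma 3.58.1), other scalings and filters, thinned libraries, subsets of clones and leaving out each clone. Log2 CPM used a prior count of 2. Positions and lengths came from GENCODE release 29, which matched 13785 tested genes, and promoter windows from RefSeq (GRCh38.p14). The tests were tried on simulated counts with 200 planted changes. There edgeR recovered 30% of 2-fold and 77% of 4-fold changes, and 8.55% of its calls were false. DESeq2 recovered 54% and 84% with 19.8% false, and limma-voom 32% and 77% with 6.03% false. A gene that did not pass may therefore still differ by 2-fold, unless its interval from the edgeR fit excludes that size. Of the members that did not pass, only CBX6 had an interval that reached 2-fold (log2 fold change -1.57 to -0.30). The intervals of CBX2, CBX8, BMI1, EZH1, EZH2, SUZ12 and EED stayed short of 2-fold in both directions.

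The members and lists were chosen with earlier results of these data known. The rule for named genes took the members, the 3 genes of each list with the smallest p (2 for markers and targets), the 5 tested genes on each side of CBX7, those next to CBX2 and CBX8, genes overlapping a member, and the 5 genes most like CBX7 with a mean of at least 1 CPM in the higher group; not all of these are printed. Genes named as being at or near 0 were chosen after their values were seen. Since neither cultures nor sequencing runs are dated, the spread behind each p-value may be partly technical. In bulk RNA, fewer cells and less RNA per cell cannot be told apart. The summed CBX level and the CBX7 share cover CBX2, CBX6, CBX7 and CBX8 only, a choice made after the data were seen; some planned items are not reported here.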

Additional observations from a re-analysis of the deposited data

Results flagged for a closer look

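Each group of 4 clones was searched for a value standing apart, 80 groups in all, and 5 had such a value (4 would be expected by chance). In log2 CPM they were 5.65 for AUTS2 in S36, -0.95 for PCGF1 in C15, 0.78 for APOBEC3H in S36, -0.60 for CD79A in S04 and 4.03 for HOXB7 in WT28. None of the 9 members was among them. The PCGF1 value rests on 1 count in C15, the shallowest library. RPL3, a neighbour of CBX7, was lower in C-named than in S-named clones by a test of the difference itself (log2 difference -1.13, edgeR adjusted p = 0.0490).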

How the results depend on the processing

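No paired analysis was possible because the labels number no replicates across the groups. CBX7 kept its direction in all 16 fits that tested it and passed in 9. These fits reuse the clones from which CBX7 was chosen. Every knockout clone lay below every wild-type clone in CBX7, so its direction was bound to hold. The count of members past the threshold, 1, was 2 with no low-count filter (CBX6 besides CBX7) and 0 with C-named clones only or in thinned libraries, which tested 8 members; it ran from 0 to 1 when each clone was left out. The 45 genes called in all became 581 with no filter, 521 by DESeq2, 94 by limma-voom, 6 with C-named and 2211 with S-named clones only, 4 in thinned libraries, and 3 to 456 when each clone was left out. The other Polycomb and HP1 genes, 0 called, had 1 with no filter or by DESeq2 (E2F6) and 7 with S-named clones only. Targets, 0 called, had 3 with no filter, 1 by DESeq2, 5 with S-named clones only, and 0 to 2 when each clone was left out. Members called between C-named and S-named clones ran from 0 to 2 when each clone was left out.

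Fold changes near 0 turned sign in some fits. EZH2 was at -0.036 with no filter, -0.040 by limma-voom, -0.28 with S-named clones only and from -0.17 (without C15) to -0.0018 (without WT13), with -0.0054 without WT30 and a highest value of 0.13 (without S04). BMI1 was at -0.042 without S36 (0.21 without C15), -0.21 with C-named clones only and -0.042 in thinned libraries. CBX2 was at 0.017 without C12 (-0.21 without S36) and 0.059 with S-named clones only, and CBX8 at 0.092 with S-named clones only. With C-named clones only APOBEC3G was at 0.018, HOXA6 at -0.16 and KDM6A at -0.27, and KDM6A was at -0.067 in thinned libraries. Between C-named and S-named clones CBX7 was at -0.78 without C12 and 0.44 without C15. EZH1 was at 0.24 without C12 or without S36 and -0.39 without C15, and EED at 0.22 without C15, 0.23 without S04 and -1.01 without C12. The cause of these turns was not tested. With exons merged in place of principal transcripts, an alternative chosen for this sum after seeing the data, the CBX7 share was 2.26% in wild-type clones. C15, the shallowest library, limits what can be said of CBX7 and CBX8 there.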
